A study of Mus musculus with 6 samples.

Results

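The CpG-free members of the R6 library are the 30 of its 64 DNA sequences in which no C is followed by G. R6 varies 3 neighbouring bases of a Gli binding site, at positions 11 to 13. The base before them is always C and the base after them always G. A member was therefore any sequence whose first varied base is not G, whose last is not C and which has no CG inside. Of the 64 sequences, 48 met the condition on the first base, 36 of these also met the condition on the last base, and 6 of the 36 were left out for a CG inside. The choice used the letters alone and no measured value.

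Gli proteins are zinc finger transcription factors that act at the end of the Hedgehog signalling pathway, and their fingers read a run of DNA bases that includes a C-rich core. CpG is the dinucleotide at which mammalian DNA methyltransferases place methyl groups, and the bacterial enzyme M.SssI methylates the C of CpG in any context. A stretch of DNA without CpG gives M.SssI no place to act within it.

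Recombinant mouse Gli, which the sample titles call Gli1, was put in 1 reaction with 4 barcoded forms of R6. These were unmethylated DNA, DNA hemimethylated on the top strand, duplex methylated DNA and DNA methylated with M.SssI. Protein-bound and unbound DNA were parted on a 9% gel, amplified by PCR and sequenced as 1 bound and 1 unbound library, so there is no replicate of any value, and every form differs from the others in barcode and preparation as well as in methylation. The protein was recombinant and the DNA synthetic, so no cell or animal was involved. The headings name the form of each block of counts but not the methylated bases of the hemimethylated and duplex DNA. A separate reaction on the R4, R5 and R6 libraries gave further counts of the same 30 sequences, and its sample characteristics, which name a CTCF library, go against its titles and headings. The titles and headings were followed.

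The sequences the results turn on are shown in the 16-base site of the series, with the varied bases in capitals. They are the strongest and the weakest unmethylated member (ATT and CCT), the member with the lowest M.SssI change (AAG) and the member least lowered in the hemimethylated form (TAT). The extremes of the duplex form (TAG and CCA) are shown with the letters of that block as listed. Which way those letters are to be read is not given, so these duplex sites are not established. The last 4 members compare A with T at positions 11 and 12.
ATT (strongest unmethylated): gaccacccacATTgaa
CCT (weakest unmethylated): gaccacccacCCTgaa
AAG (lowest M.SssI change): gaccacccacAAGgaa
TAT (smallest hemimethylated fall): gaccacccacTATgaa
TAG (strongest duplex): gaccacccacTAGgaa
CCA (weakest duplex): gaccacccacCCAgaa
AAA (first A, middle A): gaccacccacAAAgaa
TAA (first T, middle A): gaccacccacTAAgaa
ATA (first A, middle T): gaccacccacATAgaa
TTA (first T, middle T): gaccacccacTTAgaa
In these lines the lower-case bases are positions 1 to 10 and 14 to 16 of the 16-base table. None of the 30 sites written this way holds a CpG anywhere in its 16 bases. The R6 counts list the 3 varied bases only. The C at position 10 was checked by comparison with R4, and the other outer bases are those of the 16-base table and were not tested for R6. Against R4 sequences ending in GAA, the 30 R6 log ratios of the second reaction had r = 0.994 with C at position 10, with an SD of differences of 0.07. With A, G or T there, r was 0.795, 0.760 and 0.866. These points are 30 sequences of the same libraries, and not replicates.

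The members made up a large part of each block. They held 42789 bound and 19666 unbound reads in the unmethylated block, 21802 and 21902 in the hemimethylated block, 99895 and 38029 in the M.SssI block and 3939 and 4063 in the duplex block. Their share of unbound reads was 48.4% (95% Wilson interval 48.0 to 48.9) in the unmethylated block and 42.2% (41.9 to 42.5) in the M.SssI block. Their share of bound reads went from 37.5% (37.2 to 37.7) to 57.2% (57.0 to 57.4) between these blocks. In the hemimethylated block the members held 41.8% of bound and 50.4% of unbound reads, and in the duplex block 47.7% and 43.8%. All members had at least 10 reads in each fraction of every block, and the lowest count was 44.

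Binding is given as the bound count over the unbound count, and as the natural log of that ratio with 0.5 added to each count. Errors after ± are counting standard errors (SE) of the log ratio or its change for named members and for comparisons of named members. For means over several members or pairs of members they are SDs, and for a slope the SE of the fit. A counting SE covers counting only, because the PCR products carried no molecular identifiers and reads need not be separate molecules. The 4 blocks were counted in the same bound and the same unbound library, so their ratios share 1 scale and were not rescaled.

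In unmethylated DNA the members bound over a 5.75-fold range, with a median ratio of 2.73. The 34 sequences with a CpG had a median of 3.74 and reached 12.3, so as a set the members were weaker and narrower. All 16 sequences that start with G have a CpG, and their mean log ratio corresponds to a ratio of 5.57. Sequences with a CpG that start with A, C or T had 2.94, 2.33 and 1.88, against 2.49, 1.92 and 2.17 for members. Apart from a first G, the means were thus closer, and with T the members were higher. The lowest ratio with a CpG was 0.806. Of the members, ATT was the strongest, with 2105 bound and 402 unbound reads and a ratio of 5.24. ATA followed with 1536 and 352 reads, a ratio of 4.36. TAA had a ratio of 3.75, AGT 3.66, TGA 3.56 and TGT 3.38. CTT and CAT were at 3.30 each, TAT at 3.17, AGA at 3.15 and TTA at 3.12. TTT had 2.84, AAA 2.83, CAA 2.80, AAT 2.76, ATG 2.69 and CTA 2.57. This upper group of 17 holds no sequence with C in the middle and, of those ending in G, ATG alone.

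A gap of 1.57-fold separated CTA from TTG, the next in order, at 1.64. ACA at 1.63, ACT at 1.62, CTG at 1.62, CAG at 1.60 and TAG at 1.59 lay beside it. AAG had 1.30, TCA 1.22, AGG 1.22, TGG 1.18 and TCT 1.06. CCA and CCT were the weakest, at 0.986 from 486 bound and 493 unbound reads and 0.911 from 592 and 650. Only 3 of the 29 steps between neighbours in this order exceeded 2 counting SE, which were ATT over ATA, CTA over TTG and TAG over AAG. The other neighbours were not told apart by these counts, while members further apart in the order were, such as ATT and TTT, which differed by 1.85-fold.

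C in the middle and G at the end set the lower group apart. Positions are counted from 1 at the left end of the 16-base site, and A12C, for example, compares C at position 12 with A there, all else being equal. Members that differ in 1 base form 91 pairs, and 66 of these differed by more than 2 counting SE in the unmethylated block, 72.5% against 76.4% of the 288 such pairs over all 64 sequences. The share is near that background. It was 79.1% against 80.9% in the hemimethylated block, 80.2% against 82.3% in the M.SssI block, 63.7% against 61.5% in the duplex block and 94.5% against 93.4% in the second reaction. A12C lowered binding in 6 of 6 pairs, with a mean log change of -0.94 ± 0.32 (SD). Its largest effect was CAT to CCT, a 3.62-fold fall. A13G lowered binding in 8 of 8 pairs, by a mean of -0.73 ± 0.23 (SD), most for TGA to TGG, 3.02-fold.

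Exchanges of A with T at position 13 or 12, and of A with C or T at position 11, had no common direction. A13T changed the log ratio by a mean of 0.02 ± 0.14 (SD) over 11 pairs, with 3 higher and 1 lower by more than 2 counting SE. ACA and ACT had nearly equal ratios, with a difference of -0.003 ± 0.082. A12T was higher in 3 and lower in 1 of 9 pairs, and CAT and CTT differed by less than counting error, at 0.001 ± 0.075. A11C was lower in 5 and higher in 2 of 8 pairs. A11T was lower in 5 and higher in 2 of 11 pairs, with values from -0.61 to 0.28. An additive model of base by position took 87.8% of the variance over the 30 members and left a residual SD of 0.20, which is 3.92 times the median counting SE of 0.05.

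The effect of A against T at position 11 depended on the middle base, a comparison chosen after the values were seen. With A in the middle, T in place of A at position 11 went with a higher ratio, as from AAA to TAA (2.83 to 3.75). With T in the middle the same exchange lowered it, as from ATA to TTA (4.36 to 3.12). With A at the end the log changes were 0.28 ± 0.09 after A and -0.34 ± 0.08 after T in the middle. With G at the end they were 0.20 ± 0.07 and -0.49 ± 0.06, and with T at the end 0.14 ± 0.07, within 2 counting SE, and -0.61 ± 0.07. The gap between the contexts was 0.62 ± 0.12, 0.69 ± 0.09 and 0.75 ± 0.10 in the 3 cases, more than 2 counting SE in each.

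The gap had the same sign in the other counts of these sequences, apart from the duplex block. In the R6 block of the second reaction it was 1.06 ± 0.06, 1.20 ± 0.04 and 0.97 ± 0.04 for ends A, G and T. In R4 sequences with C before and GAA after the 3 bases it was 0.87 ± 0.14, 1.28 ± 0.11 and 0.95 ± 0.10. The hemimethylated block gave 0.71 ± 0.11, 0.75 ± 0.11 and 1.10 ± 0.09, and the M.SssI block 0.65 ± 0.08, 0.94 ± 0.06 and 0.64 ± 0.06. In the duplex block, as listed, the gaps were 0.28 ± 0.26, 0.16 ± 0.29 and -0.15 ± 0.25, within 2 counting SE of 0.

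The second reaction kept the order of the members but not the size of their differences. Its R6 block held 143960 bound and 136972 unbound reads of members. Across the 30 sequences r with the unmethylated block was 0.974 and rho 0.943, and the ratios were lower by a median of 2.14-fold, a shift that includes the depth of separate libraries. The members' log ratios had an SD of 0.63 there and 0.49 in the unmethylated block, so the differences between members were wider. The per-sequence difference had an SD of 0.19, against a median counting SE of 0.06, and 0.15 about the fitted slope. ATT was again highest, at 2.84, and CCA lowest, at 0.343. CAT had the smallest drop between the reactions, from 3.30 to 2.30, and AAG the largest, from 1.30 to 0.405. Within that reaction R6 and R4 differed by an SD of 0.07 with a counting SE of 0.06, so 2 libraries in 1 tube matched more closely than 1 library in 2 reactions.

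A13G lowered binding in 8 of 8 pairs there too, by -0.91 ± 0.31 (SD), and A12C in 6 of 6, by -1.19 ± 0.48. A13T, without a common direction in the unmethylated block, was higher by more than 2 counting SE in 9 and lower in 1 of 11 pairs of the second reaction, with a mean of 0.21 ± 0.20 (SD).

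The 16-base table gives no reaction and no methylation state. The authors' deposited table lists the 30 members there with ratios from 23.6 to 77.4. In the authors' deposited table the lowest ratio was that of ATT, the strongest R6 member, and the highest that of CAG. No counts were used for these ratios, so they have no counting error here and their order was not tested.

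In the M.SssI block the members kept their order and lay slightly higher. The median change from unmethylated was 0.15 on the natural log scale, or 1.16-fold, with an SD of 0.06 that equals the median counting SE of 0.06. Ratios in the treated block ran from 1.06 for CCT to 5.96 for ATT, with r = 0.993 and rho = 0.961 across sequences and a slope of 1.01 ± 0.02. No member changed by more than 1.5-fold and 2 counting SE in either direction, whereas 37.5% of all 64 sequences were lower and 0% higher by that rule. All of the lower ones, 24 in number, were sequences with a CpG, whose median change was -0.82.

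By 2 counting SE alone, 20 of 30 members were higher and 0 lower, against 35.9% and 45.3% of all 64 sequences. In all, 29 of 30 lay above 0. The exception was AAG, with 941 bound and 723 unbound reads before and 1827 and 1414 after, a change of -0.01 ± 0.06. The next lowest were TGA, at 0.03 ± 0.06, and TTG, at 0.06 ± 0.05. The highest were CTT, from 3.30 to 4.19 (0.24 ± 0.06), AAT, from 2.76 to 3.46 (0.23 ± 0.07), and CTG, from 1.62 to 2.02 (0.22 ± 0.05). The small rise shared by the members cannot be told apart from the barcode and preparation of the treated block.

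The small changes differed somewhat by the first varied base. The 8 members starting with C had a mean of 0.19 ± 0.03 (SD), and each lay between 0.14 and 0.24. The 11 starting with T had a mean of 0.10 ± 0.04, with values from 0.03 to 0.17, and the 11 starting with A had 0.16 ± 0.06. The counting SE of these means was 0.024, 0.017 and 0.020, and the ranges overlap. At positions 12 and 13 the class means lay between 0.12 and 0.15. Base by position took 43.0% of the variance of the change and left a residual SD of 0.05, below the counting SE.

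Every member was bound less in the hemimethylated form, whose methylated bases the headings do not name. The median change was -0.91, a 2.49-fold fall, and 30 of 30 were lower by more than 2 counting SE, against 100% of all 64 sequences. By more than 1.5-fold, 29 of 30 were lower, against 98.4% of all, so the fall is not particular to the members. The 34 sequences with a CpG had a median of -1.01. The shared part of the fall cannot be told apart from the barcode and preparation of this block. The spread between members was wider than counting allows, with an SD of 0.24 against a counting SE of 0.07. The order was kept in part, with r = 0.893 and rho = 0.876 across the 30 sequences.

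The size of the fall followed the middle base. The 9 members with T in the middle fell most, by a mean of -1.11 ± 0.11 (SD). ATT went from 5.24 to 1.43 (1218 bound and 853 unbound reads), ATG from 2.69 to 0.800 and TTT from 2.84 to 0.866. TTA fell 3.14-fold, CTA 2.93-fold, ATA 2.89-fold, TTG 2.78-fold, CTG 2.75-fold and CTT 2.69-fold. The 9 with A in the middle fell least, by -0.61 ± 0.21 (SD). TAT went from 3.17 to 2.22 (1552 and 699 reads), the 1 member short of 1.5-fold, CAA from 2.80 to 1.84 and TAA from 3.75 to 2.36. AAA fell 1.60-fold, CAT 1.82-fold, TAG 1.84-fold, AAT 2.27-fold, AAG 2.37-fold and CAG 2.51-fold. The A and T classes did not overlap, but they nearly met. The largest fall with A was CAG at -0.92 ± 0.08 and the smallest with T was CTT at -0.99 ± 0.07, a gap within their combined counting error.

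C and G in the middle lay between them. The 6 members with C there changed by -0.88 ± 0.09 (SD), from CCT at -0.77 to CCA at -1.01, with TCT, ACT, ACA and TCA in between. The 6 with G there changed by -0.86 ± 0.15, from TGG at -0.65 to AGT at -1.05, with TGT, TGA, AGG and AGA in between. Means by the last base were nearly level, at -0.84 for A, -0.90 for G and -0.86 for T. Those by the first base were -0.95 for A, -0.85 for C and -0.80 for T. Base by position took 74.9% of the variance of the change.

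The 34 sequences with a CpG, which the choice of members leaves out, gave the same order of A and T. Their means were -0.84 ± 0.14 (SD, n = 7) with A in the middle and -1.27 ± 0.13 (n = 7) with T, with a largest fall of -1.06 for A and a smallest of -1.07 for T. With C in the middle they had -1.11 ± 0.14 and with G -0.86 ± 0.21 (n = 10 each). Among the members, TAA was the strongest in hemimethylated DNA, at 2.36, with TAT at 2.22, CAA at 1.84 and CAT at 1.81 next, while ATT was at 1.43. CCA and CCT stayed the weakest, at 0.358 and 0.422.

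In duplex methylated DNA, as listed, the members split by their last base. The block is the shallowest, with 44 to 300 bound and 45 to 262 unbound reads per member and a median counting SE of 0.14. Ratios covered a 36.9-fold range. By more than 1.5-fold and 2 counting SE, 73.3% of members were lower than in unmethylated DNA, against 78.1% of all 64 sequences. By the same rule 16.7% of members were higher, against 10.9% of all, so both shares were near the background. All 22 members ending in A or T were among the lower, with changes from -2.18 to -0.52. Of the 8 ending in G, 5 were higher by that rule and 3 lay within 2 counting SE of 0. The changes of the G class, from -0.11 to 1.35, did not overlap those of the other members. Sequences with a CpG also had their highest mean change with G at the end, so this order is not particular to the members. Their mean was 0.15 ± 0.87 (SD, n = 8) with G, with values from -1.20 to 1.63. It was -1.71 with C, -2.13 with T and -2.96 with A, and the values with C, up to -0.69, overlapped those with G.

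With the letters as listed, TAG had 279 bound and 45 unbound reads, a ratio of 6.20 against 1.59 unmethylated, and was higher by 3.87-fold. The other values of this paragraph rest on the same reading. TTG went from 1.64 to 5.88, TGG from 1.18 to 3.81, AAG from 1.30 to 3.69 and ATG from 2.69 to 4.10. CAG, AGG and CTG, at 1.63, 1.29 and 1.45, changed by 0.01 ± 0.12, 0.06 ± 0.15 and -0.11 ± 0.12. The largest fall was in CAA, from 2.80 to 0.314 (58 and 185 reads), followed by CTA, 7.43-fold, and ACA, 7.13-fold. CCA was the weakest of all, at 0.168 from 44 bound and 262 unbound reads.

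Members ending in A fell more than those ending in T, with mean changes of -1.67 ± 0.34 (SD, n = 11) and -1.19 ± 0.46 (n = 11). ATT fell 4.68-fold to 1.12, TAT 2.83-fold to 1.12 and TTT 2.57-fold to 1.10. ATA fell 5.97-fold, TAA and AAA 4.91-fold each, TTA 4.27-fold and TGA 5.09-fold. The smallest falls among them were those of TCT, 1.68-fold, and ACT, 1.69-fold. C11T was higher in 8 of 8 pairs, with a mean of 0.95 ± 0.29 (SD), and A12C was lower in 6 of 6, at -0.62 ± 0.22. A12T lay within 2 counting SE in 9 of 9 pairs.

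These duplex values depend on how the bases of that block are listed. As listed, r with the unmethylated block was -0.0489 over the 30 members and rho -0.0429. With the bases read in reverse order, 30 sequences again lack a CpG, of which 16 are members as listed. Read that way, r was 0.477 and rho 0.383, and 30 of 30 were lower than in unmethylated DNA, with a median change of -1.13 and an SD of 0.49 in place of 1.06. The other 14 members as listed hold a CpG in the reverse reading, among them all 8 that end in G. In that reading these 8 start with G, the first base with the highest mean log ratio in unmethylated DNA. That mean corresponds to a ratio of 5.57. Whether the split by last base comes from the listing was not tested. With the bases complemented, 30 of 30 were also lower, with r = 0.152 and an SD of 0.62. With the reverse complement, which turns the 30 members into each other as 15 pairs, r was 0.173 and 7 were higher. Over all 64 sequences r was -0.141 as listed, 0.633 in reverse, 0.110 complemented and 0.164 reverse complemented. In the hemimethylated and M.SssI blocks r over the 30 sequences without CpG was highest as listed, among these 4 readings. Which reading holds for the duplex block is not given in the sources used here, so the base effects printed for it apply to the letters as listed.

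A member and its reverse complement were not bound alike in general. In unmethylated DNA the members of such a pair differed by up to 2.96-fold, as for AGA (3.15) and TCT (1.06), or 2.90-fold for TGA and TCA. Others differed by less than counting error, such as AAA and TTT, 0.004 ± 0.080, and CAG and CTG, 0.009 ± 0.062.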

How the data were processed

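Per the file headers, the authors deposited whole-number read counts of each sequence in bound and unbound DNA, and the ratio of these counts. The counts and ratio of the R6 table agree within 0.0005. How reads were counted and filtered is not given in the sources used here. Counts were not scaled. Of the 16-base table only the deposited ratio was used, because 2 count columns there name no reaction and were left out. Log ratios used a pseudocount of 0.5 and a minimum of 10 reads in each count. The counting SE was the square root of the summed reciprocal counts. A change was called past 1.5-fold and 2 counting SE, and the same rule was applied to all 64 sequences. With 1 library per fraction, no p-value was computed. All 30 members could be named. Full counts went to the extremes of each block and of each change, and matched pairs to the extremes per position. The members, lists and comparisons were chosen with earlier results of these data known. The calculation was tested on simulated data. Python 3.11.15, numpy 2.4.6 and scipy 1.17.1 were used.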

Additional observations from a re-analysis of the deposited data

Results flagged for a closer look

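Exchanges of A or T with G at position 13 had opposite signs in 2 blocks in every matched pair, and this difference was not tested beyond counting error. A13G had a mean log change of -0.73 in unmethylated DNA and 1.63 in duplex methylated DNA over 8 pairs. G13T had 0.78 and -1.21 over 8 pairs. The duplex values use the bases as listed.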

How the results depend on the processing

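Of 87 alternative values, 5 changed sign and 11 moved past a set limit, and 71 stayed within it. Some of the 71 could not move. All 30 members passed a minimum of 30 reads in every R6 block, and of 100 reads in all but the duplex block. Stricter limits could not change the M.SssI count of 0 either. The limit was 1.5 times for counts of members, the 95% counting interval of a typical member for medians, 5 percentage points for a share of variance, and 0.1 for an r or SD. No paired analysis was possible because each reaction has 1 bound and 1 unbound library and no replicate numbers. With CpG counted inside the 3 bases only, the median unmethylated log ratio was 1.15, the median M.SssI change was 0.0480 in place of 0.148, and 23, 55 and 52 of 56 sequences were called in the M.SssI, hemimethylated and duplex blocks, against 0, 29 and 27 of 30, since that set also holds sequences with a CpG at a junction. With changes taken relative to all 64 sequences, the median was 0.0381 in the hemimethylated and 0.0887 in the duplex block, and 4 and 16 members were called, since the shared shift is removed. Relative to the members' own median, 4 were called in the hemimethylated and 18 in the duplex block. At the lower fold limit, 2 members were called in the M.SssI block. With at least 100 reads in each count, 10 members remained in the duplex block, of which 2 end in G, 2 in A and 6 in T. Their median change was -0.99, against -1.36 for all 30 members, with 8 called and r = -0.538. These values describe a selected part of the members. The r of that block was 0.477 read in reverse, 0.152 complemented and 0.173 reverse complemented. The duplex block has the lowest counts per member.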
